A study of Rattus norvegicus with 21 samples.

Results

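The 10 genes described here encode enzymes and transporters of aerobic glycolysis and of the export of lactate, in the retina of the rat. They were chosen by symbol, and all 10 were found among the 19099 genes of the count table: Hk1, Hk2, Pfkp, Aldoc, Pkm, Ldha, Ldhb, Slc2a1, Slc16a1 and Bsg. Photoreceptors turn most of the glucose they take up into lactate even when oxygen is at hand, a habit they share with many tumours. Hexokinase 2, the A subunit of lactate dehydrogenase and the M2 form of pyruvate kinase are the isoforms best known from photoreceptors, whereas hexokinase 1 and the B subunit of lactate dehydrogenase are made by many cells and aldolase C is the aldolase of brain astrocytes. Glucose reaches the outer retina through the transporter encoded by Slc2a1, and lactate crosses membranes through monocarboxylate transporter 1, encoded by Slc16a1, which needs the glycoprotein basigin, encoded by Bsg, to reach the cell surface.

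The retinas came from Sprague Dawley rats after 6 months of exposure, and a value of 8 months, entered under another label field, is taken here as their age. Blue200, Blue1000, Hal200, Hal1000, LED200 and LED1000 are the 6 light groups, made of blue, halogen and LED light each at a level of 200 and of 1000, and the 7th group is labelled control. The unit of the level and the light that the control rats received are not given, and where the design text speaks of white light the sample labels write LED. Each group held 3 libraries, and no label says whether they came from separate animals, so the p-values measure the spread between libraries, which may be technical. Of 19099 genes, 16006 passed a filter on low counts, the 10 members among them. Levels are given as FPKM, counts per gene length and library total, with the totals rescaled by TMM, a factor that lines up the bulk of the genes between libraries. An alternative, called the bipolar marker scaling, holds 11 markers of bipolar cells level between libraries instead.

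Libraries held 30404774 to 35437448 counts. The summed CPM (counts scaled to library size) of 13 rod markers was 319 to 447 in Blue200, 239 to 442 in Blue1000, 32366 to 58777 in Hal200, 316 to 501 in Hal1000, 452 to 2168 in LED200 and 350 to 429 in LED1000, against 71657 to 78756 in control. None of these 13 markers was at 0 in any group. Some libraries stood apart from their group: 10 summed lens markers reached 8716 CPM in Blue200 replicate 1, 3617 in LED200 replicate 1 and 5089 in control replicate 3, and these are called lens-rich. Blue1000 replicates 1 and 3 held 2079 and 1086 CPM of lens markers, and the other 16 libraries held 5.28 to 171. In Blue1000 replicate 3, Hal1000 replicate 3 and LED1000 replicate 2 another feature was seen. Of the genes that differed by more than 2-fold within their group, 89.9%, 82.6% and 80.6% had that library in the middle. These are called the in-between libraries. In the other groups the highest such share was 66.4%, in Blue200 replicate 2. No label says whether an in-between library is independent of its mates. If it is not, the SD of Blue1000, Hal1000 and LED1000 may be too small. Since all libraries share an estimate of the spread, so may the SE and p-values of every comparison.

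The members moved in opposite directions, and each direction was seen in all of Blue200, Blue1000, Hal1000, LED200 and LED1000. Hk2, Ldha, Pkm and Slc16a1 were lower than in control in these 5 groups, whereas Ldhb and Aldoc were higher there with libraries scaled by TMM, but not for Aldoc and in LED1000 alone for Ldhb when scaled to bipolar cell markers. Hk1, Pfkp, Slc2a1 and Bsg passed the test in none of the 6 comparisons with control on the TMM scale. Thus 6 of 10 members were called in each of the 5 groups, at an adjusted p under 0.05 by edgeR's quasi-likelihood test, beside 53.5% of all genes in Blue200, 54.3% in Blue1000, 54% in Hal1000, 52.2% in LED200 and 54.5% in LED1000. By direction, 2 members were called higher in each of these groups, beside 27.7% of all genes in Blue200, 27.4% in Blue1000, 27.3% in Hal1000, 26.5% in LED200 and 27.7% in LED1000. Likewise 4 members were called lower, beside 25.8% of all genes in Blue200, 26.9% in Blue1000, 26.8% in Hal1000, 25.7% in LED200 and 26.8% in LED1000. These shares are near the background or rest on few genes, and say nothing particular about the members. In Hal200, 2 of 10 members were called, both lower, beside 11.9% of all genes called (7.25% higher and 4.6% lower). The median log2 fold change of the members was -0.11 in Blue200, -0.15 in Blue1000, -0.16 in Hal200, -0.13 in Hal1000, -0.05 in LED200 and -0.08 in LED1000, and the median of all genes tested lay between -0.01 and 0.08. All 6 comparisons share the same 3 control libraries. Of all genes called in Hal1000, 50.5% were higher, against 69.3% with library totals in place of TMM and 7.05% with the bipolar marker scaling, which moved the median gene by 0.23 and by -0.68, so directions hold relative to a scale; in Hal200 the shares were 61.1, 82.5 and 6.35%.

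**Figure D1:**
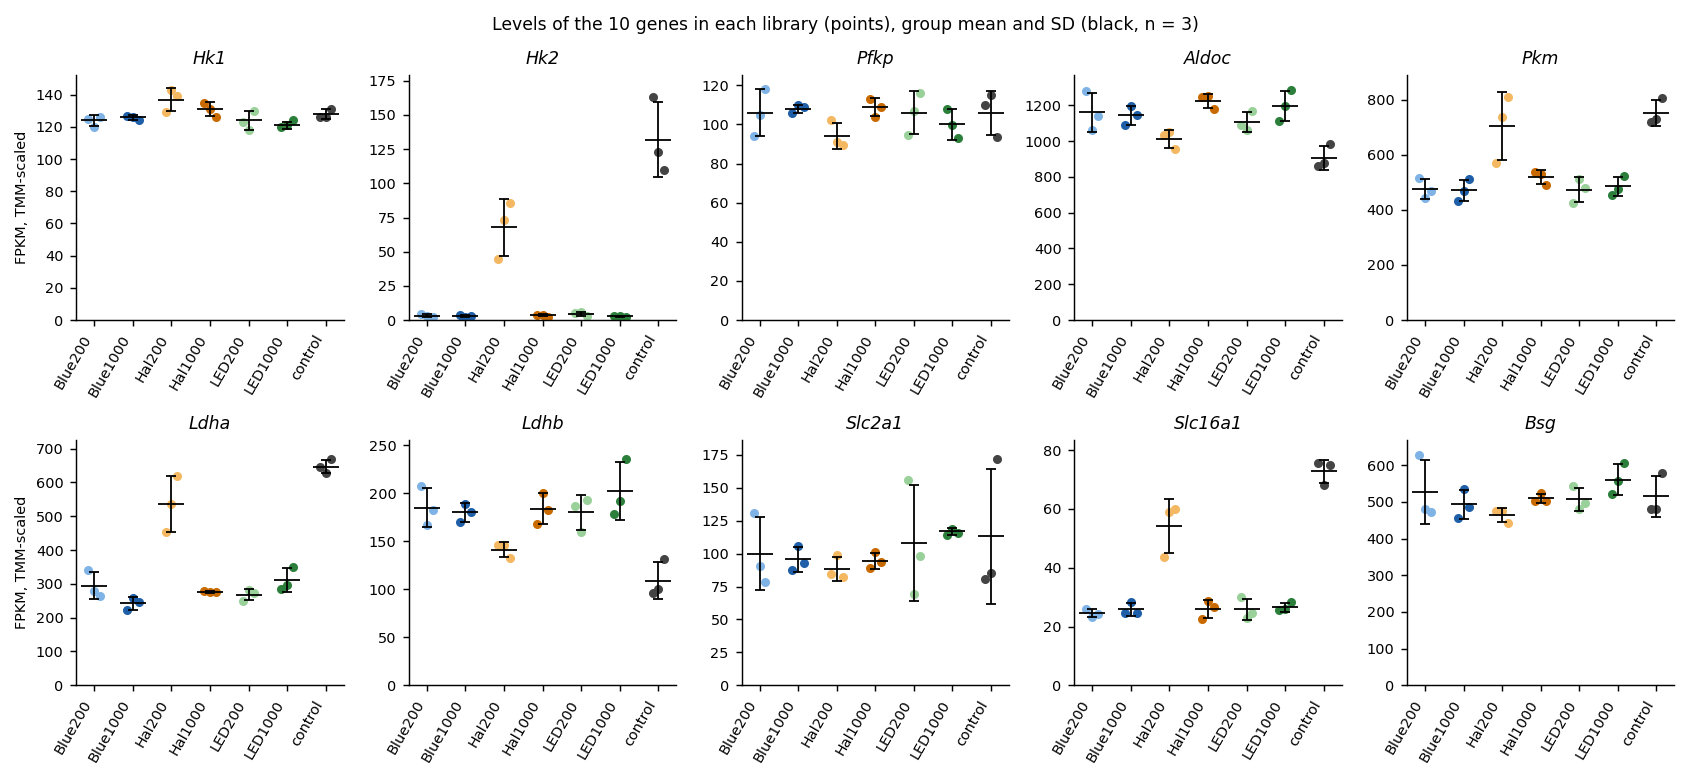
Levels of the 10 genes, as FPKM rescaled by TMM (vertical axes, linear and from 0), in the 7 groups (horizontal axes). Points are libraries, black bars the group mean and SD with n = 3; Hk2 averaged 2.77 to 4.53 FPKM in 5 light groups and 67.7 in Hal200, against 132 in control.

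The start regions of 4 members are printed to show the letters near the starts of the 3 genes with the lowest fold changes, Hk2, Slc16a1 and Ldha, and of the glial aldolase gene Aldoc. They are RefSeq sequences of build GRCr8, from 250 bases before to 50 after the annotated start, and the build behind the deposited counts is not given. The stretches were searched on both strands for TAATCC, the core bound by the photoreceptor factor CRX, and for ACGTG, the core of the hypoxia response element, and its palindrome CACGTG, which contains it; matches are in capitals.
Hk2 (chr4:116841226-116841525, minus strand): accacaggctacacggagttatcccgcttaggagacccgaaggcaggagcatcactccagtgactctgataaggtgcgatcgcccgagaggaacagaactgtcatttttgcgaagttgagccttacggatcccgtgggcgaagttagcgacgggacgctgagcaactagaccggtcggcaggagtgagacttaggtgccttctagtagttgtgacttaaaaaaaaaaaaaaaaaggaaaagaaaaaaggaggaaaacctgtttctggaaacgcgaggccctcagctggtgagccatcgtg
Ldha (chr1:106507842-106508141, plus strand): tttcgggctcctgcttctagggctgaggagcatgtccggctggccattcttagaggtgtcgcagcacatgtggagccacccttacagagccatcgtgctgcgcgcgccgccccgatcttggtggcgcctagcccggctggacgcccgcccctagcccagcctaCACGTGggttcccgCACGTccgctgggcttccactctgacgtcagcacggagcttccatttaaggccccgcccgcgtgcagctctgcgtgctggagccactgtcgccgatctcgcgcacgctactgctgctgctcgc
Slc16a1 (chr2:194812410-194812709, plus strand): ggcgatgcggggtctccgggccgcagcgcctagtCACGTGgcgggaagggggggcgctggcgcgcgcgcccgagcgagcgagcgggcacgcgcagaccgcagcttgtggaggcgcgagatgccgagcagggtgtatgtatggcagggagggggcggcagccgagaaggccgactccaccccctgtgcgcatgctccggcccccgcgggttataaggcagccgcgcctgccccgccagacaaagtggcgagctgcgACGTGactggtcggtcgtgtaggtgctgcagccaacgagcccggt
Aldoc (chr10:63715294-63715593, plus strand): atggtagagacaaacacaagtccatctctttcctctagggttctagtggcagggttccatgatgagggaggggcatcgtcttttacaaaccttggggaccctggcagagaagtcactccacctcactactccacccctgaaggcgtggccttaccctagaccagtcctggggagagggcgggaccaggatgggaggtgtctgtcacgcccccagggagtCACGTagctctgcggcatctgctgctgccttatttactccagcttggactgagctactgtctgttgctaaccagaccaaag
In the Hk2 stretch none of these motifs was found. CACGTG began 87 bases before the start in Ldha and 216 before it in Slc16a1. Ldha had a further ACGTG on the other strand, 73 bases before the start, and Slc16a1 had a further ACGTG 5 bases after its start. Aldoc held ACGTG on the other strand, 31 bases before its start. Over the 11 start regions of the 10 members, TAATCC was in 0, ACGTG in 6 (of Ldha, Slc16a1, Slc2a1, Bsg, Aldoc and Hk1) and CACGTG in 3 (Ldha, Slc16a1 and Bsg). Among all 33469 rat start regions of the same length, 7.17% held TAATCC, 19.3% ACGTG and 6.42% CACGTG. The stretches of Ldha and Slc16a1 had 66.7% and 72.7% G and C, beside a median of 51.7% over all regions.

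Hexokinase 2, which traps glucose in the cell as the first step of glycolysis, showed the widest difference of the 10. Hk2 had 4.59, 3.14 and 2.1 FPKM in Blue200 and 3.48, 2.54 and 3 FPKM in Blue1000. In the halogen groups it had 44.9, 72.9 and 85.4 FPKM in Hal200 and 3.94, 3.5 and 2.54 FPKM in Hal1000. The LED libraries held 5, 5.71 and 2.89 FPKM in LED200 and 3.21, 2.71 and 2.4 FPKM in LED1000, against 163, 123 and 110 FPKM in control. Every library of the 6 light groups thus lay below every control library, and those of Hal200 lay apart from both the control and the other light groups. The log2 fold change of Hk2 against control was -5.33 ± 0.35 in Blue200 (adjusted p = 5.7e-09), -5.45 ± 0.36 in Blue1000 (4.6e-09), -5.31 ± 0.35 in Hal1000 (5.4e-09), -4.86 ± 0.34 in LED200 (1.4e-08) and -5.57 ± 0.36 in LED1000 (3.7e-09; edgeR's quasi-likelihood test, ± SE). In percent of the control mean, Hk2 was at 2.49 in Blue200, 2.28 in Blue1000, 2.52 in Hal1000, 3.43 in LED200 and 2.1 in LED1000, and the summed rod markers were at 0.518, 0.454, 0.575, 1.45 and 0.516% in the same groups. In bulk tissue, fewer cells of a type and less RNA per cell cannot be told apart.

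Slc16a1, the gene of monocarboxylate transporter 1, was next. It had 26, 23.4 and 24.2 FPKM in Blue200, 24.6, 28.5 and 24.7 in Blue1000, 30, 22.9 and 24.5 in LED200 and 25.6, 26 and 28.4 in LED1000, against 75.5, 68.2 and 74.8 in control. Among the halogen libraries it had 43.5, 58.8 and 59.9 FPKM in Hal200 and 22.5, 28.7 and 26.5 in Hal1000. The groups lay in 3 bands that did not overlap, with control on top and Hal200 between it and the other 5, whose libraries were mixed. Slc16a1 fell by 1.45 (LED1000) to 1.57 (Blue200) on the log2 scale in these 5 groups, with adjusted p of 1.1e-08 or less by edgeR.

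Lactate dehydrogenase A, the subunit that favours making lactate from pyruvate, followed the same order. Ldha had 342, 278 and 265 FPKM in Blue200, 223, 259 and 246 in Blue1000, 250, 282 and 273 in LED200 and 285, 297 and 350 in LED1000, against 645, 628 and 669 in control. In the halogen groups Ldha had 453, 535 and 619 FPKM in Hal200 and 279, 275 and 275 in Hal1000. No library of the light groups reached the lowest control library. The log2 fold changes of Ldha were -1.13 in Blue200, -1.42 in Blue1000, -1.23 in Hal1000, -1.27 in LED200 and -1.06 in LED1000, each with an SE of 0.11 (edgeR adjusted p of 1.5e-07 or less). Ldha has processed pseudogenes in rodent genomes, and how the deposited counts treated shared reads is not given.

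Pyruvate kinase M, the last step of glycolysis, is counted as 1 gene, so its M1 and M2 forms cannot be told apart here. Pkm had 517, 445 and 468 FPKM in Blue200, 434, 468 and 512 in Blue1000, 539, 529 and 492 in Hal1000, 425, 514 and 480 in LED200 and 455, 476 and 524 in LED1000, against 721, 729 and 806 in control. These 5 groups lay below control without overlap. Pkm fell by 0.53 (Hal1000) to 0.67 (Blue1000 and LED200) on the log2 scale, with edgeR adjusted p of 0.00034 or less. Its level stayed at 62.7 to 69.2% of control, and Ldha at 37.4 to 48% and Slc16a1 at 33.7 to 36.6%, where Hk2 was at 2.1 to 3.43%.

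**Figure D2:**
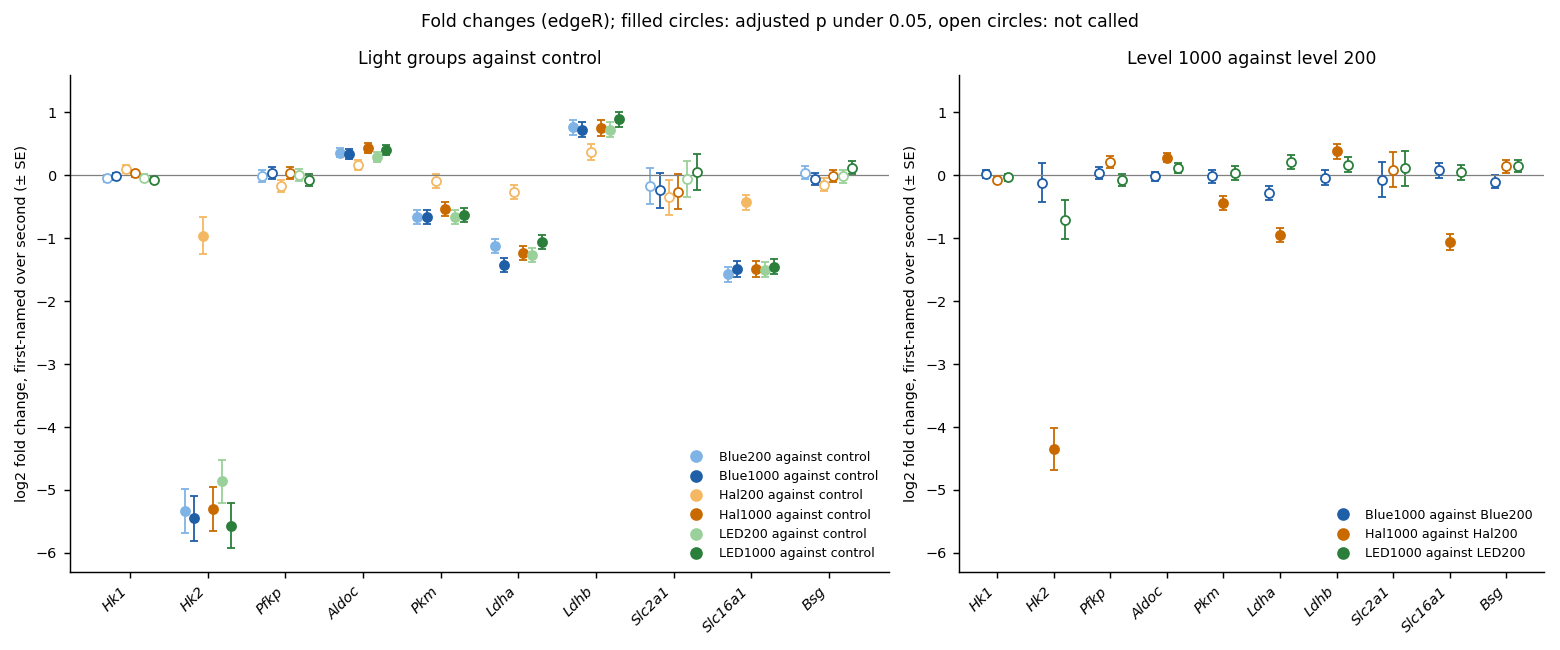
Log2 fold changes (vertical axes, first-named group over second, ± SE, from edgeR) of the 10 genes against control (left) and between levels (right). Filled circles passed an adjusted p of 0.05; Hk2 lay at -4.86 to -5.57 in 5 groups and at -0.96 in Hal200, and between levels filled circles appear for halogen light alone.

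Ldhb, the lactate dehydrogenase subunit that favours the way back to pyruvate, had 207, 167 and 182 FPKM in Blue200 and 170, 189 and 180 in Blue1000. It had 168, 200 and 182 FPKM in Hal1000, 187, 160 and 193 in LED200 and 178, 192 and 236 in LED1000, against 96.2, 100 and 131 in control. All 15 libraries of these groups lay above the control libraries. On the main scale Ldhb rose by 0.76, 0.72, 0.75, 0.72 and 0.89 on the log2 scale in Blue200, Blue1000, Hal1000, LED200 and LED1000 (edgeR adjusted p of 5.7e-05 or less), but with libraries scaled to the bipolar cell markers it was at 0.16, 0.07, 0.07, -0.03 and 0.39, and only LED1000 kept the call (adjusted p = 0.044).

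Aldoc, the gene of aldolase C, which splits fructose bisphosphate, had the highest level per length of the 10 genes in all 7 groups. Its libraries held 1278, 1063 and 1142 FPKM in Blue200, 1090, 1195 and 1149 in Blue1000, 1245, 1251 and 1179 in Hal1000, 1093, 1061 and 1171 in LED200 and 1113, 1194 and 1285 in LED1000, against 861, 876 and 983 in control. Again no library of these groups reached down to control. Aldoc rose by 0.36, 0.34, 0.43, 0.29 and 0.40 in the same order on the log2 scale (edgeR adjusted p of 0.0038 or less), and turned to -0.24, -0.31, -0.25, -0.46 and -0.10 with the bipolar marker scaling, where Blue1000 (adjusted p = 0.03) and LED200 (0.0022) were called lower. That scaling lowered the median of all genes by 0.50 to 0.74 in the 5 groups. In Hal1000, for example, Aldoc lay at -0.25 and the median gene at -0.65, a gap carried over from the TMM scale, since the scaling moves all genes of a library alike. The 9 summed Müller glia markers were at 134 to 153% of control in these groups and the 11 summed bipolar markers at 120 to 148%, and their part in the higher Aldoc and Ldhb was not tested.

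The other 4 members were not called against control in any light group on the TMM scale. Hk1 had 118 to 135 FPKM in the 5 groups and 126 to 131 in control, with log2 fold changes of -0.07 to 0.03 (edgeR adjusted p of 0.28 or more). Pfkp, the platelet form of phosphofructokinase, the main control point of glycolysis, had 93 to 118 FPKM in these groups and 93.5 to 115 in control. Bsg had 456 to 628 FPKM in them and 482 to 580 in control. Against control the ranges of these 5 groups overlapped for each of these genes, save that Hk1 in LED1000 (120, 121 and 124 FPKM) lay below control (126, 126 and 131). A missed threshold does not show that levels were equal. With library totals in place of TMM, Hk1 was called higher in each of the 5 groups, for example at 0.21 in Blue1000 (adjusted p = 0.0045). With the bipolar marker scaling it was called lower in each, for example at -0.65 in Hal1000 (9.2e-06). That scaling also called Pfkp (-0.57 to -0.74) and Bsg (-0.37 to -0.77) lower in each of the 5 groups. It called Slc2a1 lower in Blue1000 (-0.91, adjusted p = 0.029), Hal1000 (-0.96, 0.022) and LED200 (-0.83, 0.044). With library totals Pfkp was called higher in Blue200, Blue1000 and Hal1000 (0.23 to 0.27), and Bsg in Blue200 (0.28) and LED1000 (0.39).

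Slc2a1, the gene of the glucose transporter GLUT1, was spread widely within 3 groups. It had 131, 90.9 and 78.2 FPKM in Blue200, 156, 69.4 and 98.2 in LED200 and 80.7, 85.4 and 172 in control. In each of these groups the highest library was the lens-rich one. In the other groups Slc2a1 had 87.4, 106 and 93.2 FPKM in Blue1000, 84.6, 98.8 and 82 in Hal200, 88.7, 101 and 93.6 in Hal1000 and 114, 119 and 116 in LED1000. Blue1000 replicate 1, with 2079 CPM of lens markers, had the lowest Slc2a1 of its group. Against control the log2 fold change of Slc2a1 in LED1000 was 0.05 ± 0.28 (edgeR adjusted p = 0.9), and without the 3 lens-rich libraries it was 0.49 ± 0.12 (adjusted p = 0.0025). Bsg was likewise highest in the lens-rich library of Blue200 (628 FPKM), LED200 (542) and control (580), and in LED1000 against control it moved to 0.22 ± 0.078 without them (adjusted p = 0.022), against 0.12 ± 0.1 with them (0.31). The part of lens RNA in these values was not tested beyond leaving those libraries out.

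**Figure D3:**
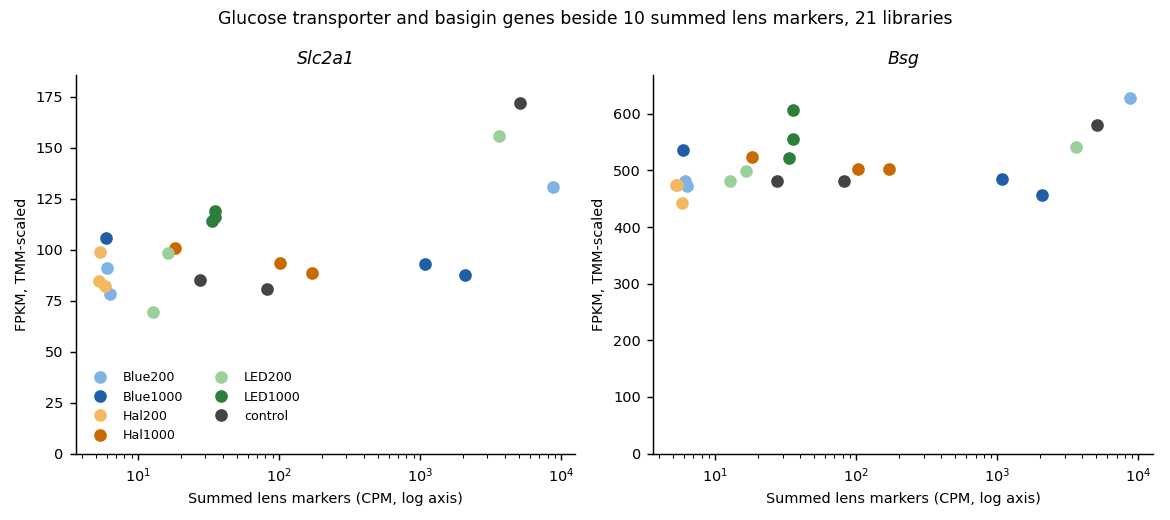
Slc2a1 and Bsg (FPKM, linear axes from 0) against the summed CPM of 10 lens markers (log axis) in 21 libraries, coloured by group. The 3 lens-rich libraries, at 3617 CPM or more on the horizontal axis, hold the highest Slc2a1 value of their group, at 131 in Blue200, 156 in LED200 and 172 in control.

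In Hal200 the levels of Hk2, Slc16a1, Ldha, Pkm, Ldhb and Aldoc lay on average between control and the other 5 light groups. In its 3 libraries Hk2 was at 34, 55.3 and 64.7% of the control mean, Slc16a1 at 59.8, 80.7 and 82.2%, Ldha at 69.9, 82.6 and 95.5% and Pkm at 75.8, 98.2 and 108%. The summed rod markers were at 42.9, 62.4 and 77.9% in the same libraries. All 5 measures were lowest in the same library and highest in the same library. Hk2 was 0.96 ± 0.29 lower on the log2 scale than in control (adjusted p = 0.044) and Slc16a1 0.43 ± 0.12 lower (0.025; edgeR). Both calls were lost without Hal200 replicate 1 (-0.74 and adjusted p = 0.22 for Hk2, -0.29 and 0.17 for Slc16a1), without control replicate 1 (-0.78 and 0.17, -0.40 and 0.096) and without control replicate 2 (-1.01 and 0.098, -0.47 and 0.053). That of Hk2 was also lost without Hal200 replicate 2 (-1.02, adjusted p = 0.11), and both had an adjusted p of 0.11 when the 2 groups were fitted alone. Leaving out the in-between libraries, none of which is of Hal200 or control, also lost both (adjusted p = 0.084 for Hk2 and 0.062 for Slc16a1). Ldha at -0.27 (adjusted p = 0.1, and 0.013 without Hal200 replicate 3), Pkm at -0.09 (0.62), Ldhb at 0.37 (0.051) and Aldoc at 0.16 (0.19) did not pass. Nor did Hk1 at 0.10 (adjusted p = 0.26), Pfkp at -0.17 (0.25), Slc2a1 at -0.35 (0.46) and Bsg at -0.15 (0.35). Hk1 had 129, 143 and 139 FPKM in Hal200, the highest mean of the 7 groups, whereas Pfkp (102, 91.1 and 89.7), Bsg (474, 475 and 442) and Slc2a1 had their lowest means there. The Bsg libraries of Hal200 lay below the 482 to 580 FPKM of control. These calls depend on the scale and the libraries: Hk1 passed with library totals (0.19, adjusted p = 0.027), Pfkp (-0.43, 0.0025) and Bsg (-0.42, 0.046) with the bipolar marker scaling, and Pfkp also without the lens-rich libraries (-0.26, 0.035), where Slc2a1 turned to 0.09 (0.64). Ldhb had 146, 146 and 132 FPKM in Hal200, all above the 96.2 to 131 of control. It passed at 0.53 (adjusted p = 0.0047) without the lens-rich libraries, 0.51 (0.008) without control replicate 3 and 0.41 (0.035) without Hal200 replicate 3. With all libraries Ldhb passed by DESeq2 (0.36, adjusted p = 0.026) and voom (0.51, 0.00077). It also passed with library totals in place of TMM, by edgeR (0.47, adjusted p = 0.021) and by limma-trend (0.48, 0.025), which used the deposited FPKM. In edgeR on that scale Hk2 (0.05) and Slc16a1 (0.052) lost their calls. With the bipolar marker scaling Ldhb lay at 0.11 (adjusted p = 0.65).

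**Figure D4:**
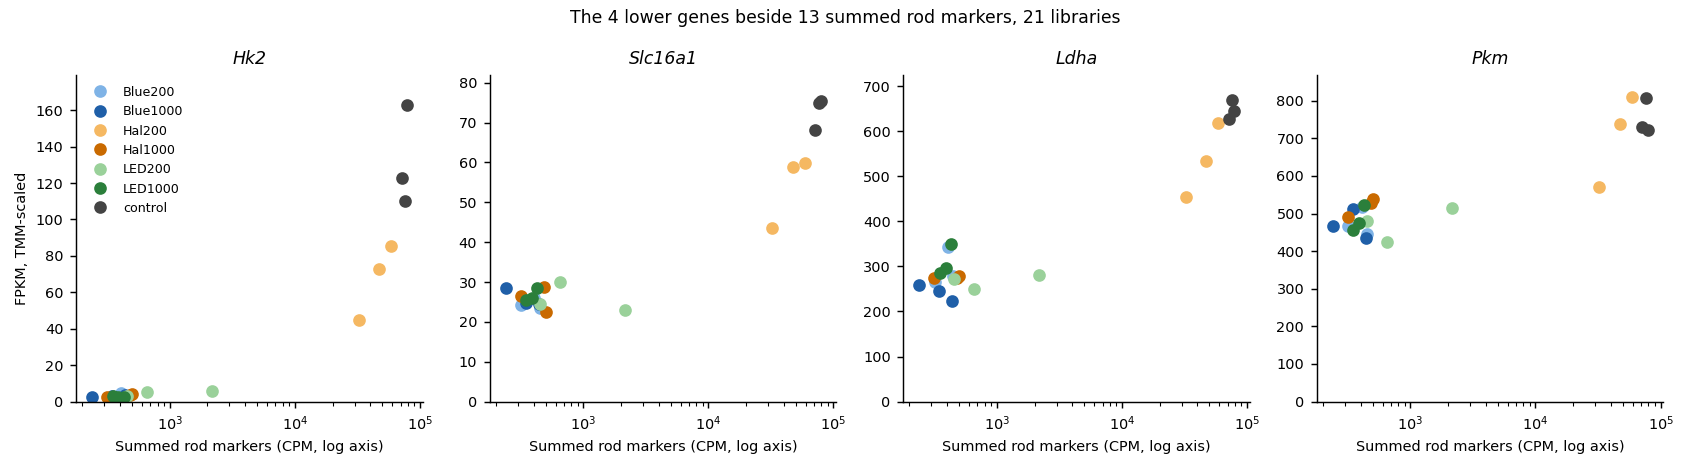
Hk2, Slc16a1, Ldha and Pkm (FPKM, linear axes from 0) against the summed CPM of 13 rod markers (log axis) in 21 libraries, coloured by group. The 3 Hal200 libraries (32366, 47114 and 58777 CPM) lie between the control libraries and the 15 libraries at or under 2168 CPM.

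Members differed between the levels of halogen light. In Hal1000 against Hal200, 6 of 10 members were called, beside 34.9% of all genes. Hk2 was at -4.35 ± 0.34 (adjusted p = 7.7e-08), Slc16a1 at -1.06 ± 0.12 (1.3e-06), Ldha at -0.95 ± 0.11 (1.5e-06) and Pkm at -0.44 ± 0.11 (0.0033) on the log2 scale. Ldhb at 0.38 ± 0.12 (adjusted p = 0.02) and Aldoc at 0.28 ± 0.077 (0.0089) were higher in Hal1000, and turned to -0.04 and -0.14 with the bipolar marker scaling. Without Hal200 replicate 3 or Hal1000 replicate 2 the adjusted p of Ldhb was 0.067 or 0.093. Hk1, Pfkp, Slc2a1 and Bsg lay at -0.07 to 0.21 and did not pass. In Blue1000 against Blue200 and in LED1000 against LED200 no member was called, beside 0.0125 and 0.0687% of all genes by edgeR. At an unadjusted p under 0.05 there was 1 member in each, Ldha in blue light at -0.28 (adjusted p = 0.85) and Hk2 in LED light at -0.71 (0.32), and DESeq2, voom and limma-trend called 0 members as well. The 10 members ranged from -0.28 to 0.08 in blue light and from -0.71 to 0.21 in LED light. The summed rod markers were at 61.1% of the control mean in Hal200 and 0.575% in Hal1000. They were already at 0.518% in Blue200 and 1.45% in LED200, beside 0.454% in Blue1000 and 0.516% in LED1000. The part of rod loss in these level effects was not tested.

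The difference between these level effects was tested as such. The level effect of halogen light minus that of blue light was -4.22 for Hk2 (adjusted p = 6.4e-06), -1.14 for Slc16a1 (7.7e-05) and -0.67 for Ldha (0.0037) on the log2 scale, so 3 of 10 members were called, beside 20.7% of all genes. The other 7 lay at -0.42 to 0.42, with adjusted p of 0.054 or more. Against the level effect of LED light the difference was -3.64 for Hk2 (adjusted p = 3.4e-05), -1.17 for Ldha (2.6e-05), -1.11 for Slc16a1 (0.00012) and -0.48 for Pkm (0.03), which made 4 of 10 members, beside 21.4% of all genes. Pkm lost that call without Hal200 replicate 2 or 3, Hal1000 replicate 3, LED200 replicate 1 or 3, or LED1000 replicate 3, with adjusted p of 0.053 to 0.098. It was also lost with library totals, in edgeR (0.073) and in limma-trend (0.1), without the lens-rich libraries (0.058) and without the in-between libraries (0.12). Hk1, Pfkp, Ldhb, Slc2a1, Bsg and Aldoc lay at -0.04 to 0.29 and did not pass, but Pfkp passed at 0.38 with library totals (adjusted p = 0.049) and at -0.37 with the bipolar marker scaling (0.01). Between the level effects of blue and LED light edgeR called 0 members, beside 0.0625% of all genes, with 1 at an unadjusted p under 0.05 (Ldha, -0.50), and voom called 1.

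At the level of 200, Hal200 was set against the mean of Blue200 and LED200, and 6 of 10 members were called, beside 38.6% of all genes. Hk2 was higher in Hal200 by 4.13 ± 0.25 (adjusted p = 3e-09), Slc16a1 by 1.10 ± 0.1 (4.6e-08), Ldha by 0.93 ± 0.09 (1.4e-07), Pkm by 0.57 ± 0.091 (5.8e-05) and Hk1 by 0.15 ± 0.049 (0.024). Ldhb was at -0.37 ± 0.11 (adjusted p = 0.0098), and at 0.04 with the bipolar marker scaling. The Hk1 call was lost without Blue200 replicate 2, Hal200 replicate 2 or 3, or LED200 replicate 2 (adjusted p of 0.054 to 0.11), and its value was 0.01 with library totals (adjusted p = 0.94) or limma-trend, so it depends on the scale. The Ldhb call was lost without Hal200 replicate 3 (0.051). Pfkp, Slc2a1, Bsg and Aldoc lay at -0.23 to -0.16 and did not pass, but Pfkp passed at -0.30 with library totals (adjusted p = 0.0059) and at 0.25, in the other direction, with the bipolar marker scaling (0.0054). At the level of 1000, Hal1000 against the mean of Blue1000 and LED1000 gave 0 members by edgeR, DESeq2, voom or limma-trend, and 0 at an unadjusted p under 0.05, beside 0.0125% of all genes called by edgeR. The members ranged from -0.16 (Slc2a1) to 0.20 (Hk2, ± 0.27, adjusted p = 1) there.

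The balance between isoforms within a library does not depend on how libraries are scaled, since FPKM is per length and both genes share the library. The ratio of Hk2 to Hk1 was 0.0265 ± 0.0101 in Blue200, 0.0239 ± 0.0036 in Blue1000, 0.491 ± 0.135 in Hal200, 0.0254 ± 0.00468 in Hal1000, 0.037 ± 0.0134 in LED200 and 0.0229 ± 0.00372 in LED1000, against 1.04 ± 0.234 in control (SD, n = 3 each). Control retinas thus held about as much Hk2 as Hk1 message per length, at 1.29, 0.973 and 0.839 in the 3 libraries, whereas Hk1 was the main form in every library of the light groups. The ratio of Ldha to Ldhb was 1.6 ± 0.118 in Blue200, 1.35 ± 0.0326 in Blue1000, 3.82 ± 0.793 in Hal200, 1.51 ± 0.14 in Hal1000, 1.5 ± 0.228 in LED200 and 1.54 ± 0.0589 in LED1000, against 6.04 ± 0.83 in control (SD, n = 3 each). Ldha remained the more abundant of the pair in all 21 libraries, but its share of their sum was 57.4 to 61.4% in 5 light groups and 78.9% in Hal200, against 85.6% in control. Over the 18 libraries of the light groups against 3 of control, the mean log2 ratio differed by -4.55 for Hk2 to Hk1 and by -1.78 for Ldha to Ldhb, each with a two-sided exact permutation p of 0.00075, the smallest that 1330 arrangements allow and unchanged by adjustment over the 2 ratios. The ratios were chosen with earlier results of these data known. Hk2 and Ldha lay below control in every light library, as given above, so this p is no separate support. The test also treats the 18 libraries as alike, though the ratios of Hal200 lay apart from those of the other light groups. Each light group alone also lay apart from control in both ratios, at an exact permutation p of 0.1, the smallest that 3 libraries against 3 can give.

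**Figure D5:**
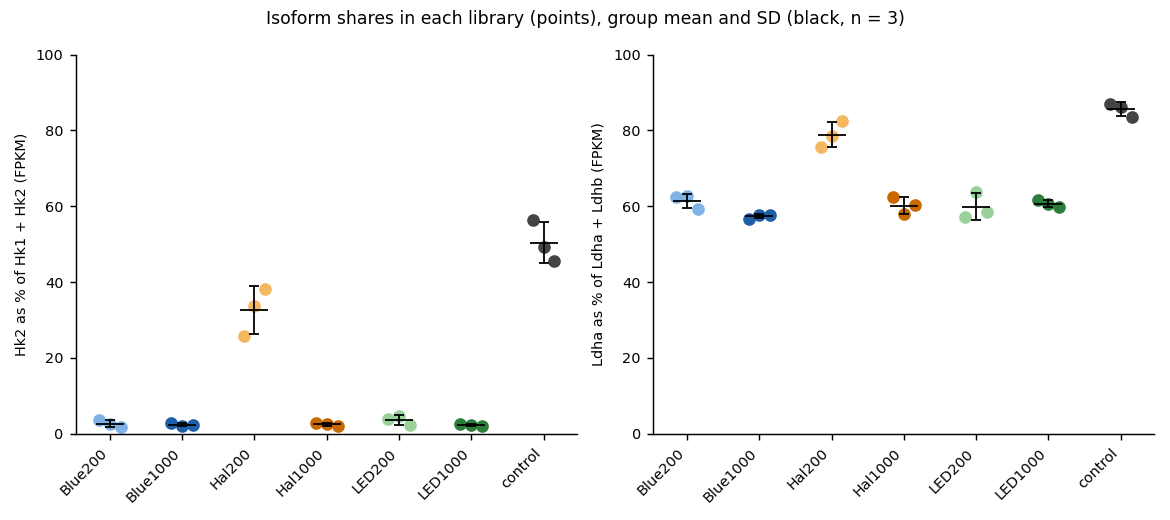
Hk2 as a percentage of Hk1 plus Hk2 (left) and Ldha as a percentage of Ldha plus Ldhb (right), from the deposited FPKM, by group, with axes from 0 to 100. Points are libraries and black bars the mean and SD (n = 3); the Hk2 share averaged 2.24 to 3.56% in 5 light groups and 32.6% in Hal200, against 50.4% in control.

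In the order of levels, Hk2 ran from control (132 ± 27.6 FPKM) through Hal200 (67.7 ± 20.7) to LED200, Hal1000, Blue200, Blue1000 and LED1000 (4.53 ± 1.47, 3.33 ± 0.715, 3.28 ± 1.25, 3.01 ± 0.47 and 2.77 ± 0.407; SD, n = 3 each), and neighbours overlapped from LED200 on. The genes whose log2 CPM followed Hk2 most closely over the 21 libraries, among 13404 genes, were Gramd2a, Lpcat1, Ugdh, Tlcd3b and Llgl2, with Pearson's r of 0.994, 0.993, 0.993, 0.992 and 0.992. Among the members, Slc16a1 had an r of 0.965 with Hk2, Ldha 0.949 and Pkm 0.912. The closest to Aldoc were Atp6v0c (0.966), Fbxo2 (0.961), Atp6ap1 (0.960), Ano10 (0.954) and Mapk3 (0.952), and Ldhb was the 8th with 0.947. These values describe points that share their groups, their scaling and the gap between rod-rich and rod-poor libraries, and carry no test.

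Other genes of the pathway gave a mixed picture. Of 18 other glycolytic enzyme genes tested, 5 were higher and 1 lower in Hal1000 than in control, beside 27.3% of all genes higher and 26.8% lower, and 1 was higher in Hal200, beside 7.25% of all genes. The counts called higher here are near the background, and all these counts rest on few genes. Pfkm, the muscle form of phosphofructokinase, had 122, 128 and 127 FPKM in Hal1000 and 95.5, 92.2 and 88.6 in Hal200, against 76, 79.5 and 75.1 in control. It was higher in both, by 0.71 ± 0.059 (edgeR adjusted p = 1.1e-08) and by 0.26 ± 0.059 (0.0093), but lay at 0.03 and 0.00 with the bipolar marker scaling and was not called. Tpi1, triosephosphate isomerase, at 0.47 and Hkdc1, a hexokinase domain protein, at 0.56 were also called higher in Hal1000, and turned to -0.21 and -0.12 with the bipolar marker scaling. The 18 genes had a median of 0.15 in Hal1000, beside 0.03 for all genes tested. In Blue200 6 were higher and 1 lower, beside 27.7 and 25.8% of all genes. In Blue1000 the counts were 6 and 2, beside 27.4 and 26.9%, and in LED200 6 and 1, beside 26.5 and 25.7%. In LED1000 8 were higher and 10 not called, beside 27.7% of all genes higher and 26.8% lower.

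The enzymes that set the level of fructose 2,6-bisphosphate, the activator of phosphofructokinase, include Pfkfb2, which fell beside Hk2. Pfkfb2 had 7.91, 7.52 and 7.36 FPKM in Hal1000 and 16.8, 22 and 29.8 in Hal200, against 41, 38.2 and 33.3 in control. The groups did not overlap. Its log2 fold change was -2.24 in Blue200, -2.20 in Blue1000, -0.71 ± 0.14 in Hal200 (adjusted p = 0.0046), -2.30 in Hal1000, -2.10 in LED200 and -2.30 in LED1000, with edgeR adjusted p of 1.9e-09 or less in all groups but Hal200. Tigar, a phosphatase that lowers fructose 2,6-bisphosphate, was at -0.53 to -0.76 in the 5 groups (adjusted p of 0.00099 or less) and at -0.21 in Hal200 (0.25). Pfkfb3, a relative of Pfkfb2, was at 0.25 in Hal1000 (adjusted p = 0.021) and at -0.43 with the bipolar marker scaling. These genes were counted in a wider list, which also held Fbp1, Fbp2 and Txnip. Of its 6 genes tested, 2 were higher and 2 lower in Hal1000, beside 27.3 and 26.8% of all genes, and 1 was lower in Hal200, beside 4.6%.

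Among 7 other genes of lactate and monocarboxylate handling, 4 were higher in Hal1000 than in control and 3 were not called, beside 27.3% of all genes higher. In Hal200 1 was higher, beside 7.25% of all genes. Emb, embigin, a relative of basigin that also partners monocarboxylate transporters, had 25.7, 19.2 and 23.8 FPKM in Hal1000 and 14.6, 15.8 and 12.2 in Hal200, against 11.9, 10.9 and 9.69 in control. Both groups lay above control, at 1.08 ± 0.12 (edgeR adjusted p = 3.8e-07) and 0.39 ± 0.12 (0.041), and at 0.41 (0.011) and 0.13 (0.47) with the bipolar marker scaling. Emb rose by 1.04 to 1.13 in the other 4 groups. Slc16a8, a lactate transporter of the pigment epithelium, had 12.9, 39.5 and 27.2 FPKM in Hal1000 and 0.442, 2.08 and 2.15 in Hal200, against 0.464, 0.901 and 3.71 in control. It was at 3.95 ± 0.71 in Hal1000 (adjusted p = 0.00025) and at 3.46 to 3.80 in Blue200, Blue1000, LED200 and LED1000, but at -0.14 ± 0.72 in Hal200 (0.93). The 10 pigment epithelium markers, of which Slc16a8 is one, summed to 462 to 1489 CPM in Hal1000 and 52.3 to 132 in Hal200, against 60.5 to 186 in control, with none at 0, and their part in the Slc16a8 level was not tested. Ldhd, a dehydrogenase of D-lactate, was at 0.52 in Hal1000 (adjusted p = 0.00011) and at -0.15 with the bipolar marker scaling.

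Of 8 other glucose transporter genes tested, 3 were higher and 1 lower in Hal1000, beside 27.3% of all genes higher and 26.8% lower, and 1 was higher in Hal200, beside 7.25%. Slc2a5, a fructose transporter found on microglia, had 2.54, 2.69 and 2.35 FPKM in Hal1000 and 3.28, 6.63 and 1.67 in Hal200, against 0.586, 0.563 and 1.07 in control. No library of either halogen group overlapped control, and the log2 fold changes were 1.76 ± 0.39 (edgeR adjusted p = 0.00084) and 2.38 ± 0.4 (0.0018). The 8 microglia and macrophage markers summed to 144 to 146 CPM in Hal1000 and 58.6 to 139 in Hal200, against 38.9 to 48.4 in control, and their part was not tested. Slc2a3, the neuronal glucose transporter GLUT3, was at 0.70 and Slc2a13, a myo-inositol transporter, at 0.69 in Hal1000, and both lost the call with the bipolar marker scaling, at 0.03 and 0.01.

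A list on pyruvate in mitochondria held genes of the pyruvate carrier, pyruvate dehydrogenase, its kinases and phosphatases, and pyruvate carboxylase. Of its 13 genes tested, 5 were higher and 3 lower in Hal1000 than in control, beside 27.3% of all genes higher and 26.8% lower. Mpc1, a subunit of the mitochondrial pyruvate carrier, was at 0.57 and Pdp1, a phosphatase that activates pyruvate dehydrogenase, at 0.45, and these turned to -0.11 and -0.22 with the bipolar marker scaling. Pdp2, the other such phosphatase, was at -0.62 in Hal1000 (edgeR adjusted p = 7.5e-05) and at -0.55 in Hal200 (0.0044), with 3.56, 4.34 and 3.55 FPKM in Hal1000 and 3.6, 4.45 and 4.01 in Hal200, against 5.66, 6.42 and 5.53 in control. In the pentose phosphate pathway 1 of 7 genes was higher, beside 27.3% of all genes, Tkt at 0.52 (transketolase; -0.17 with the bipolar marker scaling), and 2 were lower, beside 26.8%, Rpe at -0.41 and Pgd at -0.31. Of 11 glycogen genes, 7 were higher in Hal1000 and 4 were not called, beside 27.3% of all genes higher, and the higher ones include Ugp2, which makes the glucose donor of glycogen synthesis, at 0.73, Gbe1 at 0.54 and Pgm1 at 0.53. With the bipolar marker scaling Ugp2 lay at 0.05 and was not called, and Gbe1, the branching enzyme, and Pgm1, phosphoglucomutase, turned to -0.14 and -0.16.

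Nxnl1 and Nxnl2 encode the rod-derived cone viability factors, and in the mouse the first of them binds a photoreceptor form of basigin to raise glucose uptake by cones. Nxnl1 had 3.33, 3.19 and 3.37 FPKM in Hal1000 and 55.3, 65.1 and 98.6 in Hal200, against 125, 111 and 94.5 in control. Nxnl2 had 2.43, 2.51 and 3.06 FPKM in Hal1000 and 66.8, 83.2 and 84 in Hal200, against 156, 167 and 67.5 in control. Hal1000 lay far below control for both genes, whereas Hal200 overlapped it. Nxnl1 was at -4.04 to -5.06 and Nxnl2 at -4.77 to -5.92 on the log2 scale in the 5 groups (edgeR adjusted p of 1.5e-07 or less), and at -0.60 (adjusted p = 0.12) and -0.74 (0.19) in Hal200. The 9 summed cone markers were at 103 to 153% of control in the light groups, but single markers went both ways: 2 were higher and 3 lower in Blue1000, with a median of -0.45, and 2 higher and 3 lower in Hal1000, with a median of -0.37.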

How the data were processed

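RNA of 21 retina libraries (3 in each of 7 groups) was sequenced. The authors deposited a table of raw counts per gene and a table of FPKM values (counts per gene length and library total). All 19099 genes with counts gave 1 whole-number length within 0.001 bases, so the deposited FPKM were made from the counts and library totals. R 3.2.0 is named in the submitters' processing notes. The aligner, counter, genome build and strand setting, and the treatment of shared or antisense reads, were not given in the sources used here.

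Counts of 30404774 to 35437448 per library were fitted in edgeR 4.0.16 (R 4.3.3): filterByExpr with a minimum count of 10 and a total of 15, TMM factors, 1 mean per group over all 21 libraries, robust quasi-likelihood F-tests, two-sided, Benjamini-Hochberg over 16006 genes, threshold 0.05. The script was tested on simulated data. Levels called FPKM are counts over library total times TMM factor and length; ratios are of the deposited FPKM, and log2 ratios, with exact permutation tests, of FPKM plus 0.1. DESeq2 1.42.0, limma 3.58.1 (trend and voom), other scalings, filters and left-out libraries were alternatives. Limma-trend was run on log2 of the deposited FPKM, which are scaled to library totals without TMM, so it is not separate from the library totals alternative. Counting error is only part of the spread, which limits precision at 3 libraries a group.

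The members, lists and tests were chosen with earlier results of these data known. All 10 members were tested in every comparison and are given by value or, where they did not pass, often by their range, and of each pathway list the counts and up to 3 called genes with the smallest adjusted p, printed for both halogen groups. Genes printed for all 6 light groups (Pfkfb2, Tigar, Emb, Slc16a8, Nxnl1 and Nxnl2) were named by that rule in the 5 groups other than Hal200, and Pfkfb2 and Emb in Hal200 as well. They are 6 of the 14 genes named in those 5 groups. The rest, Pfkm, Slc2a3, Slc2a13, Mpc1, Pdp2, Tkt, Gbe1 and Ugp2, are printed for halogen light alone. For likeness, log2 CPM with a prior count of 2 was used. Start regions came from RefSeq tables of GRCr8, matched by symbol for 10 of 10 members.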

Additional observations from a re-analysis of the deposited data

Results flagged for a closer look

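For 7 results the effect of the level of light (1000 against 200) differed between light sources, by a test of the difference itself in edgeR. Halogen light minus blue light gave -4.22 for Hk2 (adjusted p = 6.4e-06), -0.67 for Ldha (0.0037) and -1.14 for Slc16a1 (7.7e-05) on the log2 scale. Halogen light minus LED light gave -3.64 for Hk2 (adjusted p = 3.4e-05), -0.48 for Pkm (0.03), -1.17 for Ldha (2.6e-05) and -1.11 for Slc16a1 (0.00012). The summed rod markers were at 316 to 501 CPM in Hal1000 and at 32366 to 58777 in Hal200, against 239 to 447 in both blue groups and 350 to 2168 in both LED groups, and their part in these differences was not tested.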

How the results depend on the processing

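Of 2760 member results under the alternatives, single left-out libraries included, 2587 kept their side of the threshold, 95 gained a call and 45 lost one. A further 33 turned round, some of them with a call gained or lost. The pooled numbers hide differences between alternatives: with the bipolar marker scaling 98 of 140 kept their side, 21 gained a call, 3 lost one and 18 turned round. In the 5 groups other than Hal200 the 6 members called against control stayed 6 without any 1 library. Without 1 library the number was 0 to 4 in Hal200 against control (0 without control replicate 1, control replicate 2 or Hal200 replicate 1, 1 without Hal200 replicate 2, 3 without control replicate 3 and 4 without Hal200 replicate 3), 5 to 6 in Hal1000 against Hal200, 4 to 7 in Hal200 against the mean of Blue200 and LED200, 3 to 4 for the difference of halogen and blue level effects, 3 to 4 for halogen and LED, and 0 elsewhere. The log2 ratio differences ran over -4.78 to -4.38 (Hk2 to Hk1) and -1.9 to -1.7 (Ldha to Ldhb).

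Members called in Hal200 against control numbered 2, but 5 with the bipolar marker scaling, 1 with no filter, 0 with the compared groups alone, 7 with voom, 4 without the lens-rich libraries and 0 without the in-between libraries. With library totals the number in Hal200 stayed 2, but the genes were Hk1 and Ldhb in place of Hk2 and Slc16a1. Halogen minus blue level effects gave 3, but 5 with DESeq2, the bipolar scaling, library totals or limma-trend with either pseudocount. Halogen minus LED gave 4, but 8 with the bipolar scaling; with library totals it stayed 4 because Pfkp gained a call where Pkm lost one, and blue minus LED gave 1 with voom. The causes were not tested.

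The replicate number as a block gave 1 call in Hal200. Same-numbered libraries had a median correlation of deviations of 0.007 over 63 pairs, with 16 over 0.1. Libraries of different number had 0.011 over 126 pairs, with 30 over 0.1. For 10 of 21 libraries the mean correlation was higher with same-numbered libraries than with the others. The numbers thus gave no sign of pairing.

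With library totals, and with limma-trend at either pseudocount, Hk1 turned to 0.20 in Blue200, 0.21 in Blue1000 and 0.18 in LED200; in LED1000 it was at 0.20, 0.19 and 0.20, and Pfkp was at 0.23 in Blue200 by all of these. With the bipolar scaling, values turned against control to -0.56 (Bsg) and -0.24 (Aldoc) in Blue200, and to -0.61 (Pfkp) and -0.31 (Aldoc) in Blue1000. In Hal1000 they turned to -0.65 (Hk1), -0.63 (Pfkp), -0.25 (Aldoc), -0.21 (Tpi1), -0.12 (Hkdc1), -0.43 (Pfkfb3), -0.15 (Ldhd), -0.11 (Mpc1), -0.22 (Pdp1), -0.17 (Tkt), -0.14 (Gbe1) and -0.16 (Pgm1). In LED200 they were -0.03 (Ldhb) and -0.46 (Aldoc), and in LED1000 -0.37 (Bsg) and -0.10 (Aldoc). In Hal1000 against Hal200 they were -0.20 (Pfkp), -0.04 (Ldhb) and -0.14 (Aldoc), in Hal200 against the mean of Blue200 and LED200 0.25 (Pfkp) and 0.04 (Ldhb), and for halogen minus LED -0.37 (Pfkp) and -0.51 (Aldoc). That scaling moves every gene of a library by the same amount.

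The number of all genes called in Hal200 against control was 1897, and 0 to 4792 over the alternatives. Depth varied little (30404774 to 35437448 counts), and 3 libraries a group limit what can be seen of small shifts such as those of Hk1, Pfkp and Bsg.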
